A study of Mus musculus with 8 samples.

Results

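Plasmacytoid dendritic cells (pDC) are known by a set of marker genes, and 10 of these were followed across all libraries of the study: Siglech, Bst2, Ly6d, Ly6c2, Lag3, Ptprs, Smim5, Klk1, Pacsin1 and Upb1. They were taken by symbol, as 10 of the 27179 gene rows of the deposited count table. They are known pDC markers, and they were chosen with earlier results of these data known. The pDC and the conventional dendritic cells (cDC) set beside them were sorted from the spleens of C57BL/6 mice with leukemia. The mice had received panobinostat, an inhibitor of histone deacetylases, or vehicle for 2 days. The 4 groups were panobinostat pDC, vehicle pDC, panobinostat cDC and vehicle cDC, with 2 libraries each. Each library came from a pool of 3 to 6 mice, and strain, organ and leukemia were common to all groups. The sort gates, the leukemia model and the age of the mice are not stated in the labels used here, so a marker protein used in the gate cannot be named.

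pDC are dendritic cells that sense viral nucleic acids through endosomal Toll-like receptors and secrete large amounts of type I interferon. cDC take up antigen and present it to T cells. Among the 10 genes, Siglech codes for an endocytic lectin receptor of mouse pDC that signals through the adaptor Tyrobp, and Bst2 codes for tetherin, an interferon-induced membrane protein that holds budding virions at the cell surface. Ly6d and Ly6c2 code for glycolipid-anchored proteins of the Ly6 family. Lag3 and Ptprs code for inhibitory receptors, a ligand of major histocompatibility complex class II and a receptor tyrosine phosphatase. Smim5 codes for a small membrane protein. The other 3 products are not surface receptors: Klk1 is tissue kallikrein, a secreted protease that frees kinins, Pacsin1 is a cytoplasmic adaptor of endocytosis, and Upb1 is the last enzyme of pyrimidine breakdown. The set is therefore one of pDC markers and only in part one of surface markers.

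Total counts were 13124861 to 20657429 per library. Panobinostat pDC replicate 2 had the lowest total and stood apart from the other 7 libraries, with 10745 genes detected against 14927 to 19950 in the others. Its log2 levels correlated with those of panobinostat pDC replicate 1 with r = 0.801 across genes, which are not independent replicates, against 0.965 to 0.973 in the other groups. Longer transcripts were lower in it: relative to replicate 1, the median log2 difference was 0.67 for transcripts of up to 1000 bases and -1.46 for those over 6000 bases. Between the vehicle pDC libraries, replicate 2 minus replicate 1, these medians were 0.53 for the short and -0.34 for the long transcripts. The extraction text of the labels speaks of leukemia cells while the titles name dendritic cells, so the labelled cell types were checked against their markers. In depth-scaled counts (CPM), Zbtb46, a transcription factor gene of cDC, had 4.36 and 19.6 CPM in panobinostat pDC, 2.37 and 8.27 CPM in vehicle pDC, 186 to 200 CPM in panobinostat cDC and 137 to 154 CPM in vehicle cDC. Of 18 cDC markers, 10 were called lower and 2 higher in panobinostat pDC than in panobinostat cDC, and 8 lower and 2 higher under vehicle; the 2 were Clec10a and Cd209a, lectin genes, each time. Of 26 further pDC genes, 22 were called higher in panobinostat pDC than in panobinostat cDC, where 7.76% of all genes were called higher and 10.2% lower. Under vehicle 23 were called higher, where 5.01% of all genes were called higher and 4.71% lower. Most markers therefore went with the titles. CPM are counts scaled by library totals and trimmed-mean (TMM) factors, and every group value is from n = 2 libraries.

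Siglech was among the most abundant transcripts of every pDC library and close to the counting floor in cDC. It had 5435 and 6548 CPM in panobinostat pDC, 4061 and 4240 CPM in vehicle pDC, 1.83 and 1.85 CPM in panobinostat cDC, and 3.26 and 1.57 CPM in vehicle cDC. In read counts this was 109626 and 70490 in panobinostat pDC and 80516 and 78429 in vehicle pDC, against 38 and 34 in panobinostat cDC and 70 and 34 in vehicle cDC. By counts it ranked 8th and 11th of all genes in panobinostat pDC and 8th and 14th in vehicle pDC. The mean in cDC was 0.0307% of that in pDC under panobinostat and 0.0582% under vehicle. The gene lies on the plus strand of chromosome 7 at chr7:55768154-55779448 (GRCm38). Its start region is shown because this is the member with the largest separation of pDC and cDC under vehicle. The RefSeq window of 250 bases before and 50 bases after a transcript start is printed below (GRCm38.p6, chr7:55767934-55768233, plus strand). Capitals mark E-boxes (CANNTG, the letters bound by the E protein that Tcf4 encodes and by many other factors). They read as the same motif on both strands.
Siglech: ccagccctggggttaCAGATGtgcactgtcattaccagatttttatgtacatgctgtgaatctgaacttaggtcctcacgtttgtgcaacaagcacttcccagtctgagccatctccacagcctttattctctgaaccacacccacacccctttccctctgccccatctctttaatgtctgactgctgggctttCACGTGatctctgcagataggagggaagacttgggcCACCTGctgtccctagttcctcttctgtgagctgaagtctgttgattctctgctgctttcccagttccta
It holds 3 E-boxes, at -235, -56 and -20 from the start on which the window is built, counted as 0. That start lies downstream of the first base of the gene span given above, so the positions are not counted from that base. Such a motif was found in 72.1% of the 27025 promoter windows of the same length, so its presence here is a description only.

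Bst2 and Klk1 were likewise far higher in pDC, and in both the panobinostat pDC libraries lay above the vehicle pDC libraries. Bst2 had 2120 and 4095 CPM in panobinostat pDC, 1283 and 1788 CPM in vehicle pDC, 49.6 and 65.7 CPM in panobinostat cDC, and 41.0 and 47.9 CPM in vehicle cDC. It was thus detected in cDC at levels well above those of Siglech, with all 4 groups apart from each other. Klk1 had 1828 and 3143 CPM in panobinostat pDC, 788 and 1075 CPM in vehicle pDC, 0.145 and 0.435 CPM in panobinostat cDC, and 0.326 and 0.877 CPM in vehicle cDC. In cDC these were 3 and 8 reads under panobinostat and 7 and 19 reads under vehicle, so its cDC values carry a large counting error. Both start regions are shown, since these are the members with the largest positive panobinostat estimates in pDC. Bst2 lies on the minus strand at chr8:71534255-71537472 and Klk1 on the plus strand at chr7:44225360-44229622. Below, capitals mark the interferon-response core, GAAA and GAAA parted by NN, in the Bst2 window (chr8:71537423-71537722, minus strand) and E-boxes in the Klk1 window (chr7:44225110-44225409, plus strand).
Bst2: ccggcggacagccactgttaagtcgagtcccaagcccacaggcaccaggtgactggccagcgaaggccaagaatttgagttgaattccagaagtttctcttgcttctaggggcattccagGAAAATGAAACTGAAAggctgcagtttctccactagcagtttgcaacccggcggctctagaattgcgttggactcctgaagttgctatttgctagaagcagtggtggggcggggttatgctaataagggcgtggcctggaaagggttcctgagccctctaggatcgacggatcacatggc
Klk1: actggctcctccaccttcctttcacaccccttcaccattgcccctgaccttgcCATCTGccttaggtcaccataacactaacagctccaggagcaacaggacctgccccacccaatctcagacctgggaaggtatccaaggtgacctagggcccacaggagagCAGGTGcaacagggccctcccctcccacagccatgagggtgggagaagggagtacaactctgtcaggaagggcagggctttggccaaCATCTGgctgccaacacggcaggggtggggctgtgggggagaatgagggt
The Bst2 window holds 2 overlapping copies of the interferon-response core, at -130 and -124, a motif searched on both strands and found in 3.49% of all windows. The Klk1 window holds 3 E-boxes, at -197, -87 and 0. Windows were found for 7 of the 10 genes, and the interferon-response core was in the Bst2 window but in none of those of Siglech, Klk1, Pacsin1, Ly6c2, Ptprs and Upb1.

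Ly6d and Ly6c2 were also abundant in pDC and differed more between libraries of a group than Siglech did. Ly6d had 2391 and 4141 CPM in panobinostat pDC, 2178 and 3630 CPM in vehicle pDC, 4.58 and 19.2 CPM in panobinostat cDC, and 17.0 and 67.1 CPM in vehicle cDC. Ly6c2 had 2708 and 5958 CPM in panobinostat pDC, 1674 and 3445 CPM in vehicle pDC, 8.20 and 19.0 CPM in panobinostat cDC, and 3.40 and 7.71 CPM in vehicle cDC. For both genes replicate 2 was the higher library in every group.

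The inhibitory receptors were the members with the smallest separation of the cell types. Lag3 had 295 and 258 CPM in panobinostat pDC, 815 and 982 CPM in vehicle pDC, 65.5 and 52.4 CPM in panobinostat cDC, and 49.8 and 32.1 CPM in vehicle cDC. All 4 groups of Lag3 were apart from each other, and panobinostat pDC was the lower of the pDC groups. Ptprs had 95.1 and 3.16 CPM in panobinostat pDC, 183 and 136 CPM in vehicle pDC, 19.1 and 17.4 CPM in panobinostat cDC, and 24.4 and 25.6 CPM in vehicle cDC. The 3.16 CPM of panobinostat pDC replicate 2, from 34 reads, lay below every cDC library. The mean level in cDC was 21.3% of that in pDC for Lag3 under panobinostat and 4.56% under vehicle, and for Ptprs 37.2% under panobinostat and 15.7% under vehicle.

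The remaining 3 members were of moderate abundance in pDC. Smim5 had 575 and 751 CPM in panobinostat pDC, 568 and 586 CPM in vehicle pDC, 6.65 and 1.90 CPM in panobinostat cDC, and 9.04 and 3.92 CPM in vehicle cDC. Upb1 had 357 and 823.5 CPM in panobinostat pDC, 299.8 and 389.6 CPM in vehicle pDC, 1.78 and 1.09 CPM in panobinostat cDC, and 1.68 and 1.85 CPM in vehicle cDC. Pacsin1 was the only one of the 3 whose panobinostat pDC libraries both lay below the vehicle pDC libraries, with 194 and 154 CPM against 276 and 269 CPM. In cDC Pacsin1 had 2.31 and 8.75 CPM with panobinostat and 2.61 and 4.75 CPM with vehicle.

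**Figure D1:**
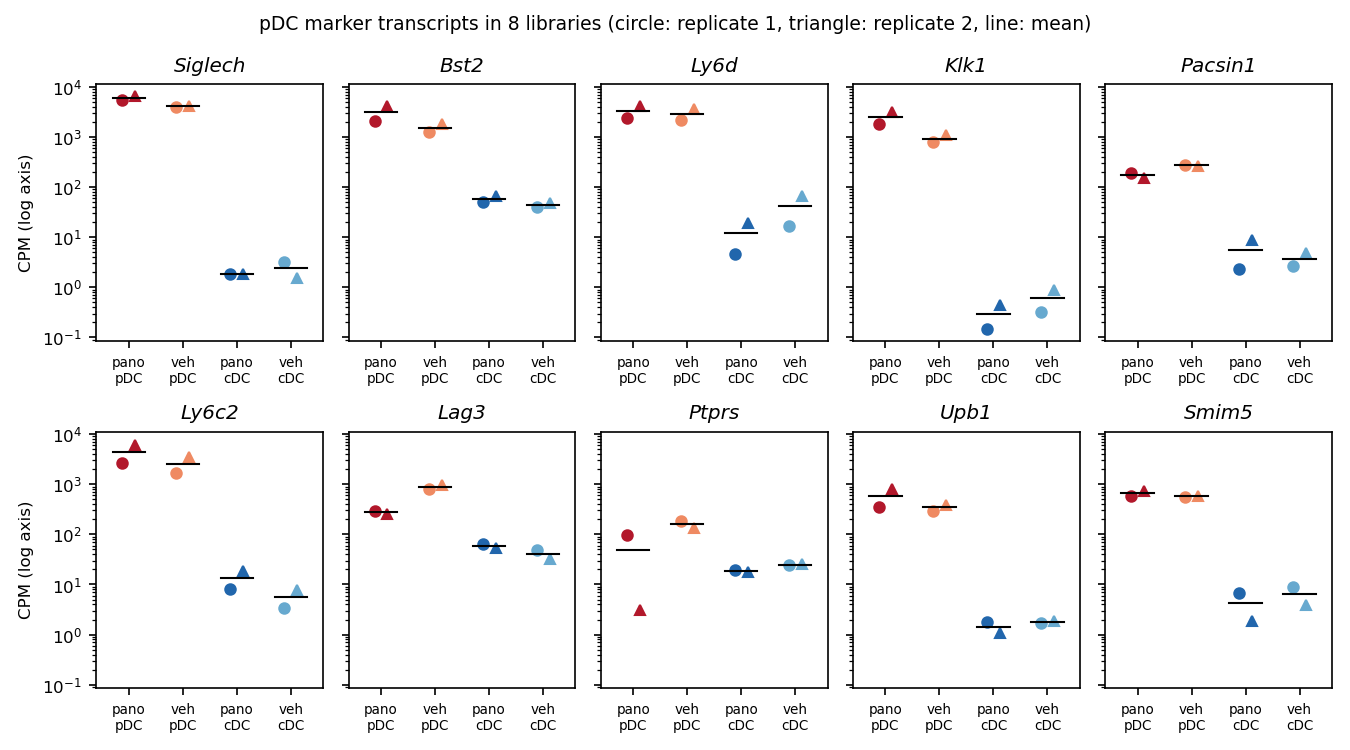
Level of each of the 10 genes in every library, in CPM on a log axis, by group (pano: panobinostat, veh: vehicle). Circles are replicate 1, triangles replicate 2 and lines the group mean of 2 libraries. The pDC libraries lie above the cDC libraries for every gene except Ptprs, whose panobinostat pDC replicate 2 lies at 3.16 CPM.

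Set against each other per kilobase of exon, the genes spanned a wide range within pDC. In panobinostat pDC the mean CPM per kilobase was 4390 for Ly6d, 3441 for Bst2, 2308 for Klk1, 1771 for Siglech and 1582 for Ly6c2, and each of these overlapped the next in order. Below them came Smim5 with 402, Lag3 with 131, Upb1 with 86.9, Pacsin1 with 26.6 and Ptprs with 3.28 CPM per kilobase, with no overlap between neighbours from Ly6c2 down. In vehicle pDC the order was Ly6d with 3903, Bst2 with 1701, Siglech with 1227, Ly6c2 with 934, Klk1 with 865, Lag3 with 426, Smim5 with 349.9, Upb1 with 50.7, Pacsin1 with 41.7 and Ptprs with 10.6 CPM per kilobase. There Siglech overlapped Ly6c2 and Ly6c2 overlapped Klk1, while the other neighbours did not overlap. Klk1 stood above Siglech in panobinostat pDC and below it in vehicle pDC, and Lag3 stood below Smim5 in panobinostat pDC and above it in vehicle pDC. In cDC the leading members were Bst2 with 63.8, Lag3 with 27.9 and Ly6d with 16.0 CPM per kilobase under panobinostat, and Ly6d with 56.5, Bst2 with 49.3 and Lag3 with 19.4 under vehicle. Together the 10 genes took 1.62% and 2.12% of all counts in panobinostat pDC and 1.32% and 1.63% in vehicle pDC, and between 0.0162% and 0.0203% in any cDC library.

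A first question was how far the markers separate pDC from cDC, with and without the drug. Their direction is what they were chosen for, so only the sizes carry information. By edgeR's quasi-likelihood test over 14238 genes, 9 of the 10 were called higher in panobinostat pDC than in panobinostat cDC at an adjusted p under 0.05, where 7.76% of all genes were called higher. Under vehicle 9 of 10 were also called higher, against a background of 5.01%. Ptprs was the exception in both. Both pDC libraries lay above both cDC libraries for 9 of the 10 genes under panobinostat (24.7% of all genes) and for 10 of 10 under vehicle (35.1%). In these bulk samples, fewer cells of a type and less RNA per cell cannot be told apart.

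The largest separations were those of Siglech and Klk1. The log2 fold change of Siglech was 11.66 ± 0.53 (SE) under panobinostat (adjusted p = 0.000548) and 10.74 ± 0.51 under vehicle (adjusted p = 0.000659). For Klk1 it was 13.06 ± 0.81 (adjusted p = 0.00106) under panobinostat and 10.58 ± 0.73 (adjusted p = 0.00141) under vehicle, both over few cDC reads. Upb1 differed by 8.67 ± 0.59 under panobinostat and 7.61 ± 0.56 under vehicle on the log2 scale, and Ly6c2 by 8.32 ± 0.89 under panobinostat and 8.85 ± 0.92 under vehicle. The membrane protein gene Smim5 differed by 7.27 ± 0.78 under panobinostat and 6.47 ± 0.75 under vehicle, and Ly6d by 8.10 ± 1.15 under panobinostat and 6.11 ± 1.05 under vehicle. For Pacsin1 the values were 4.98 ± 0.69 under panobinostat and 6.21 ± 0.73 under vehicle. Bst2 differed by 5.75 ± 0.45 under panobinostat and 5.11 ± 0.43 under vehicle. Lag3 differed by 2.23 ± 0.27 (adjusted p = 0.00535) under panobinostat and 4.46 ± 0.30 (adjusted p = 0.00135) under vehicle. The adjusted p values of the called genes ran up to 0.0193, that of Ly6d under vehicle.

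Ptprs missed the threshold, with log2 fold changes of 1.43 ± 1.20 under panobinostat (adjusted p = 0.447, groups overlapping) and 2.67 ± 1.25 under vehicle (adjusted p = 0.261, both pDC libraries above both cDC libraries). Without panobinostat pDC replicate 2 it was called in both, at 2.32 (adjusted p = 0.00101) under panobinostat and 2.65 (adjusted p = 0.000316) under vehicle, where 36.1% of all genes were called in either contrast. Without panobinostat pDC replicate 1 its estimate under panobinostat was -2.54 (adjusted p = 0.000627), where 65.9% were called. The vehicle contrast of Ptprs was called in 3 of 17 alternatives: without either panobinostat pDC library (37.2% of all genes without replicate 1) and in the 4 vehicle libraries alone (32.8%). Under vehicle, the call of Ly6d was lost without any 1 of the 4 vehicle libraries (adjusted p up to 0.11) and that of Pacsin1 without vehicle cDC replicate 1 (0.0598). Under panobinostat, that of Lag3 was lost without either panobinostat cDC library (up to 0.0643) and that of Ly6d without panobinostat cDC replicate 1.

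The second comparison, the one named in the study's design, was panobinostat against vehicle within pDC. None of the 10 genes passed the test, where 13 of 14238 genes (0.0913%) did. That count over all genes was 719 (4.78%) without panobinostat pDC replicate 2, 8227 (55.3%) without replicate 1, 0 without any 1 of the other 6 libraries, and 0 with the replicate number as a block. With edgeR, 3 of the 10 had an unadjusted p under 0.05, and so had 2119 of all genes; DESeq2 called 1 of the 10, Lag3, and 906 of all genes (6.36%), and limma-voom called 0. The direction was mixed: 7 of the 10 log2 fold changes were above 0 and 3 below, with a median of 0.36 beside -0.14 over all genes tested. For Siglech, Bst2 and Klk1 the panobinostat libraries both lay above the vehicle libraries, and for Lag3, Ptprs and Pacsin1 both lay below them. Across all genes, 15.7% lay above and 26.5% below in that way.

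Lag3 had the smallest p of the 10. It averaged 277 ± 25.9 CPM in panobinostat pDC and 899 ± 118 CPM in vehicle pDC (SD, n = 2 each), a log2 fold change of -1.70 ± 0.27 (adjusted p = 0.124). The estimate moved little between fits, from -1.86 to -1.60. Its adjusted p was 8.31e-05 by DESeq2, where 6.36% of all genes were called, and 0.0307 by edgeR with no low-count filter, where 0.300% were. The estimate was -1.66 without panobinostat pDC replicate 2 and -1.81 without replicate 1 of that group. T cells and NK cells also transcribe Lag3, so their markers are given beside it. The 12 T cell markers summed to 367 and 426 CPM in panobinostat pDC, with 3 and 4 of them at 0, and to 737 and 833 CPM in vehicle pDC, with 2 and 0 at 0. Of these sums Cd4, which mouse pDC also express, made 272.5 and 280 CPM in panobinostat pDC and 690.5 and 795 CPM in vehicle pDC. None of the 11 T cell markers tested was called for panobinostat in pDC, and 6 estimates were above 0 and 5 below. Cd3e, which defines T cells, had 0 and 0 CPM in panobinostat pDC and 0.151 and 1.30 CPM in vehicle pDC. Cd3d had 0.496 and 8.73 CPM in panobinostat pDC and 0.252 and 0.865 CPM in vehicle pDC, and Lck had 10.3 and 46.3 CPM in panobinostat pDC and 3.63 and 3.73 CPM in vehicle pDC. The 12 NK cell markers had sums of 597 and 1338 CPM in panobinostat pDC, where 2 and 9 were at 0, and 181 and 279 CPM in vehicle pDC, where 5 and 0 were at 0. Ncr1, which defines NK cells, had 1.39 and 0 CPM in panobinostat pDC and 0 and 0.108 CPM in vehicle pDC. Most of the NK sums came from Klrd1, with 407 and 832 CPM in panobinostat pDC and 156 and 229.6 CPM in vehicle pDC, and from Klrk1. The part of T cell and NK cell RNA in the Lag3 values was not tested.

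Klk1 and Bst2 had the largest estimates above 0. Klk1 averaged 2486 ± 930 CPM in panobinostat pDC and 931 ± 203 CPM in vehicle pDC, a log2 fold change of 1.42 ± 0.48 (adjusted p = 0.269). Bst2 averaged 3107 ± 1397 CPM in panobinostat pDC and 1536 ± 357 CPM in vehicle pDC, a log2 fold change of 1.02 ± 0.37 (adjusted p = 0.289). Without panobinostat pDC replicate 2 the estimates were 0.92 for Klk1 and 0.41 for Bst2, and without replicate 1 they were 1.75 for Klk1 and 1.41 for Bst2. Both transcripts are under 1000 bases long. That length class was higher in replicate 2 than in replicate 1 of panobinostat pDC and also of vehicle pDC. Its median panobinostat estimate in pDC was 0.50, and the part of transcript length in the Klk1 and Bst2 values was not tested.

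Siglech itself averaged 5992 ± 788 CPM in panobinostat pDC and 4151 ± 126 CPM in vehicle pDC. The log2 fold change was 0.53 ± 0.33 (adjusted p = 0.481), and 0.34 without panobinostat pDC replicate 2. The difference was larger than the spread between the libraries of either group but did not pass the test. Pacsin1 had a log2 fold change of -0.65 ± 0.58 (adjusted p = 0.612), and -0.55 without that library. Upb1 (0.78 ± 0.42), Ly6c2 (0.76 ± 0.65), Smim5 (0.20 ± 0.59) and Ly6d (0.17 ± 0.84) had overlapping groups and adjusted p values of 0.424 to 0.943. Without panobinostat pDC replicate 2 their estimates were -0.00 for Upb1, 0.02 for Ly6c2, -0.06 for Smim5 and -0.34 for Ly6d, so that the estimates of Upb1, Ly6c2 and Smim5 above 0 rested largely on that library. Under scaling by library size alone the estimates of Smim5 and Ly6d were also below 0, and that of Ly6d was -0.16 without vehicle pDC replicate 1. Ptprs had a log2 fold change of -1.69 ± 1.21 (adjusted p = 0.528), which was -0.80 without panobinostat pDC replicate 2 and -5.66 without replicate 1.

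**Figure D2:**
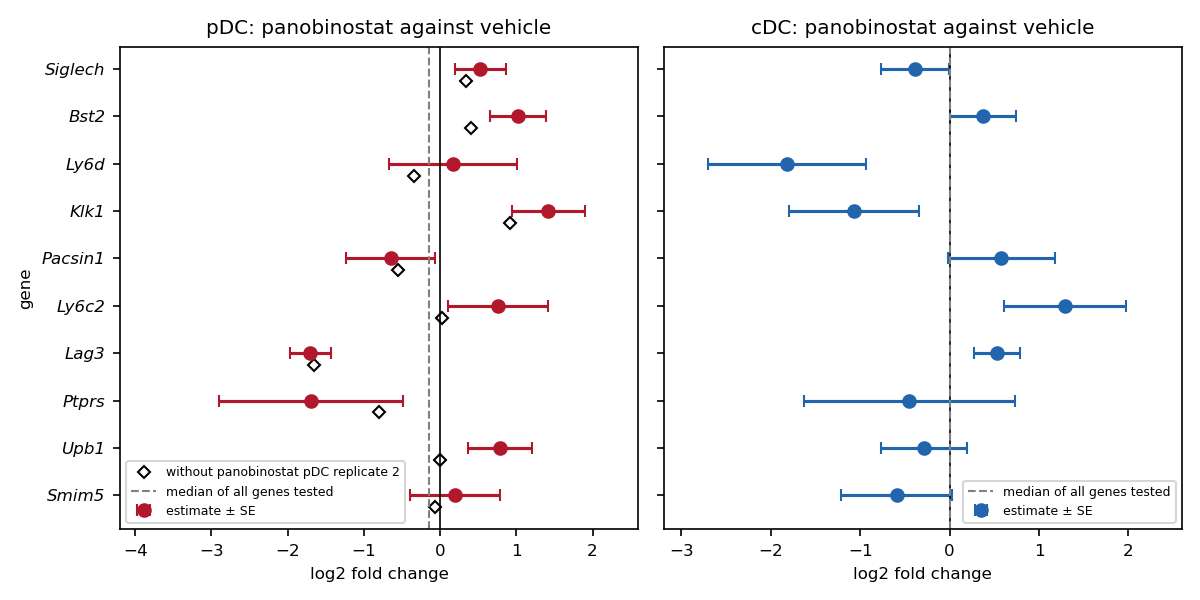
Log2 fold change of each gene, panobinostat against vehicle, in pDC (left) and cDC (right), from edgeR; filled points are estimates with bars of 1 SE, and the dashed line is the median of all genes tested. Open diamonds give the pDC estimates without panobinostat pDC replicate 2. These are nearer to 0 for every gene but Ly6d, which lies at -0.34, and nearly the same for Lag3, at -1.66.

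The gap between the panobinostat pDC libraries ran with transcript length. Ptprs, with the longest annotated transcript of the 10 genes at 6855 bases, differed by -4.87 log2 units, replicate 2 minus replicate 1. Upb1, at 3724 bases, was an exception in the other direction with 1.20, and Ly6c2, at 2680 bases, had 1.14. The shortest, Ly6d, Bst2 and Klk1, at 744, 792 and 954 bases, had 0.79 (Ly6d), 0.95 (Bst2) and 0.78 (Klk1). Pacsin1, at 4566 bases, had -0.33, Lag3 -0.19, Siglech 0.27 and Smim5 0.39. In vehicle pDC the same differences between replicates ran from -0.43 for Ptprs to 1.04 for Ly6c2.

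**Figure D3:**
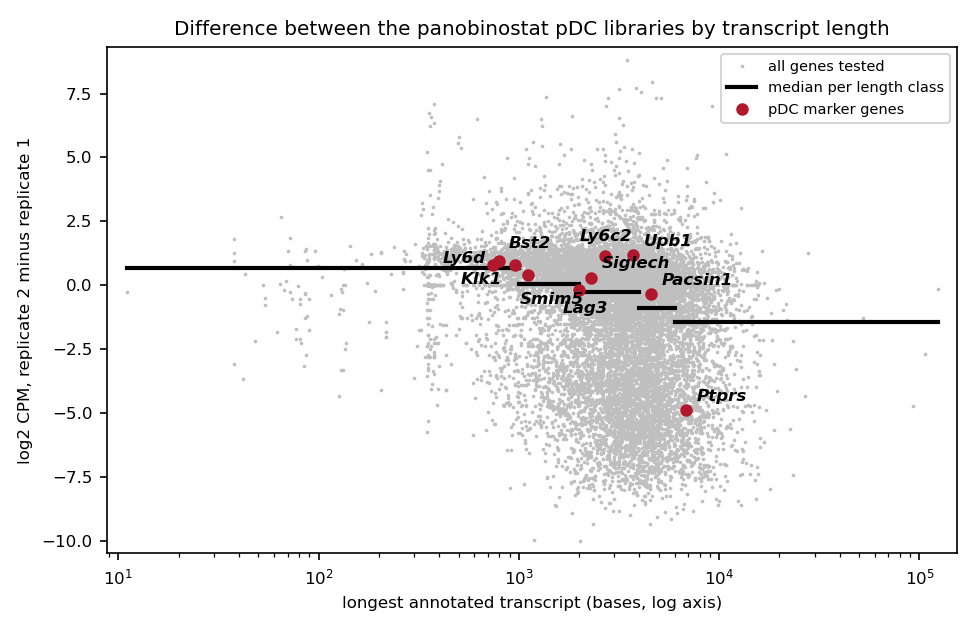
Difference in log2 CPM between panobinostat pDC replicate 2 and replicate 1 against the length of the longest annotated transcript (log axis), for all genes tested (grey) and the 10 marker genes (red). Black lines are medians per length class, which run from 0.67 for transcripts of up to 1000 bases to -1.46 for those over 6000 bases, and Ptprs lies at -4.87.

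In cDC, where Siglech, Klk1 and Upb1 rested on 70 reads or fewer per library while Bst2, Lag3 and Ptprs were well detected, none of the 10 genes was called. The same held for all 14238 genes (0%) by edgeR and by limma-voom, with 206 genes at an unadjusted p under 0.05 by edgeR and 15 called by DESeq2, none of them among the 10. The median log2 fold change of the 10 was -0.34, beside 0.00 over all genes, with 4 above 0 and 6 below. The panobinostat cDC libraries both lay above the vehicle cDC libraries for Bst2, Ly6c2 and Lag3 and below them for Ptprs, where 22.2% of all genes lay above and 18.8% below in that way. Lag3, with 58.9 ± 9.30 CPM in panobinostat cDC and 40.9 ± 12.5 CPM in vehicle cDC, had a log2 fold change of 0.53 ± 0.26, and Ly6c2 had 1.29 ± 0.68. Monocytes also carry Ly6c2, and their 12 markers summed to 1337 and 1400 CPM in panobinostat cDC and 1245 and 1532 CPM in vehicle cDC. In pDC the same sums were 1033 and 1390 CPM with panobinostat, with 3 and 7 markers at 0, and 515 and 607.5 CPM with vehicle, with 2 and 0 at 0, and their part in the Ly6c2 values was not tested. The adjusted p was 1 for all 10.

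Ly6d had the lowest estimate in cDC, -1.82 ± 0.88, with 11.9 ± 10.4 CPM in panobinostat cDC and 42.0 ± 35.5 CPM in vehicle cDC. It was called in 1 alternative, the 4 cDC libraries fitted alone with the replicate number as a block (-1.86, adjusted p = 0.0283). That fit called 106 of 13556 genes (0.782%), and the same libraries without the block 0. Ly6d is also transcribed by B lineage cells, whose 12 markers summed to 706 and 1024 CPM in panobinostat cDC and 1173 and 2256 CPM in vehicle cDC, with none at 0. In pDC the same sums were 3375 and 3693 CPM with panobinostat and 3084 and 3119 CPM with vehicle. Of the 12 single estimates for pDC against cDC, 6 were above 0 and 6 below under panobinostat, and 3 above and 9 below under vehicle. The part of B lineage RNA in the Ly6d values was not tested in either cell type.

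Whether panobinostat acted differently on the markers in the 2 cell types was tested as the difference of its effects, pDC minus cDC. None of the 10 genes passed, and 1 of 14238 genes did (0.00702%). Of all genes 1107 had an unadjusted p under 0.05, and 2 of the 10 did, Lag3 and Klk1. The difference was -2.23 ± 0.37 log2 units for Lag3 (adjusted p = 0.326) and 2.48 ± 0.87 for Klk1 (adjusted p = 0.549). DESeq2 called 290 genes (2.04%) and Lag3 among them (-2.17, adjusted p = 0.00127), while limma-voom called none. Without panobinostat pDC replicate 1, 4 of the 10 were called, where 43.4% of all genes were. For the other 8 genes the differences lay between -1.24 for Ptprs and 1.99 for Ly6d.

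Gene families bear on how far these counts belong to the genes they are assigned to. Of all 50-base windows in the exons of Klk1, 24.0% also occur in other genes, foremost Klk1b5 (15.9% of windows) and Klk1b3 (7.93%), and 14.4% of those of Ly6c2, mainly in Ly6c1 (13.9%). The other 8 members share at most 1.5% of theirs. Klk1b5 had 13% as many counts as Klk1 in each library of panobinostat pDC, and 12.8% and 12.9% in vehicle pDC. Klk1b21 had 6.86% and 6.70% in panobinostat pDC, and 6.85% and 6.78% in vehicle pDC. Ly6c1 had 21.3% and 22.3% as many counts as Ly6c2 in panobinostat pDC, and 21.2% and 21.3% in vehicle pDC. Klk1b5, Klk1b21 and Ly6c1 thus kept a nearly fixed ratio in all 4 pDC libraries. Klk1b27 did so less, with 17.5% and 14.8% in panobinostat pDC and 13% and 14.4% in vehicle pDC. The values of these genes are uncertain because the labels do not say how reads with several alignments were handled. In cDC the ratio of Ly6c1 to Ly6c2 was 45.3% and 35.7% under panobinostat and 53.4% and 89.8% under vehicle.

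Of 13 further kallikrein genes of the Klk1 cluster, 10 had enough counts to be tested. All 10 estimates for panobinostat in pDC were above 0, with a median of 1.45, and 9 of the 10 had both panobinostat libraries above both vehicle libraries, where 15.7% of all genes did. None was called. Klk1b27 had 320.5 and 464 CPM in panobinostat pDC and 103 and 154 CPM in vehicle pDC (log2 fold change 1.61 ± 0.50, adjusted p = 0.246), and Klk1b5 had 237 and 408 CPM in panobinostat pDC and 101 and 138 CPM in vehicle pDC. Klk1b9 was less abundant, at 7.14 and 39.4 CPM in panobinostat pDC and 1.16 and 1.57 CPM in vehicle pDC, and had the largest estimate of the family (4.08 ± 1.06, adjusted p = 0.217). In cDC each of the 13 genes had at most 0.231 CPM in any library.

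Among 7 tested genes of the Ly6 family beside Ly6d and Ly6c2, 5 were called higher in pDC than in cDC under each treatment (7.76% of all genes under panobinostat and 5.01% under vehicle) and none was called for panobinostat. Ly6e, a widely expressed member, had 4139 and 5430 CPM in panobinostat pDC, 3745 and 4642 CPM in vehicle pDC, 1508 and 1861 CPM in panobinostat cDC, and 1273 and 1369 CPM in vehicle cDC. Ly6a, which codes for Sca-1, had 845.5 and 2164 CPM in panobinostat pDC and 599 and 1718 CPM in vehicle pDC, with replicate 2 the higher as for Ly6c2. The lowest estimates for panobinostat in pDC were those of Ly6i (-1.87 ± 0.95, adjusted p = 0.399) and of Lynx1, known for binding acetylcholine receptors. Lynx1 had 33.7 and 55.5 CPM in panobinostat pDC and 148 and 191 CPM in vehicle pDC (log2 fold change -1.92 ± 0.50, adjusted p = 0.203). Ly6k had 32.2 and 58.9 CPM in panobinostat pDC and 17.6 and 49.4 CPM in vehicle pDC.

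**Figure D4:**
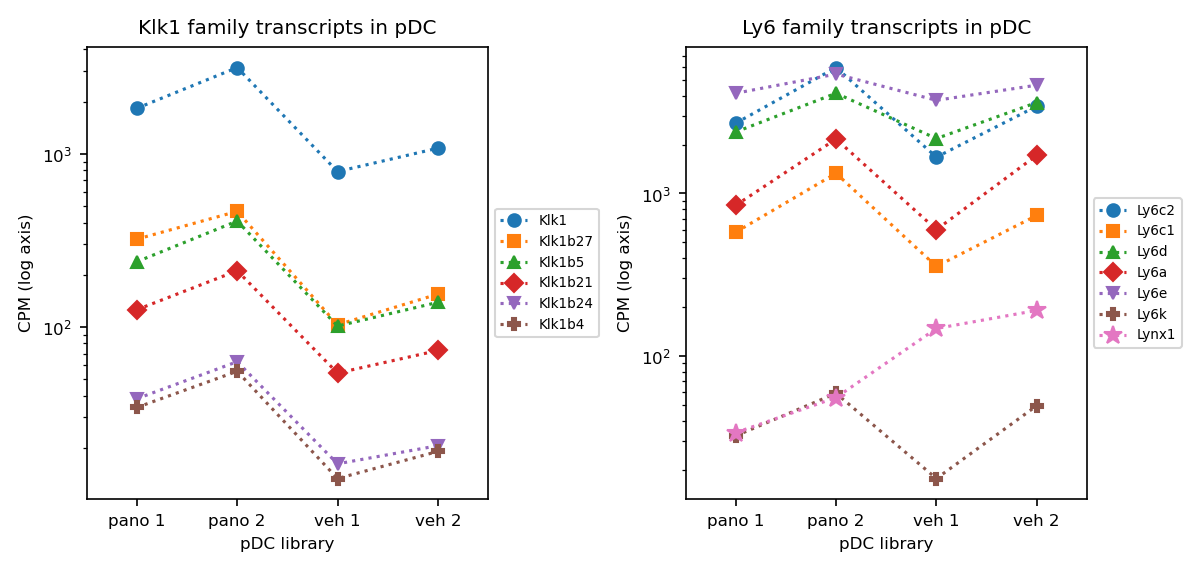
Levels of Klk1 with its family (left) and of Ly6 family genes (right) in the 4 pDC libraries, in CPM on a log axis; dotted lines join the values of 1 gene and do not mark a time course. Klk1b5 and Klk1b21 run close to parallel to Klk1 and Ly6c1 to Ly6c2, while Lynx1 lies at 33.7 and 55.5 CPM in panobinostat pDC and at 148 and 191 CPM in vehicle pDC.

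Other relatives of the markers differed in which cell type held them. Of the Siglec family, 6 of 8 were tested. Cd33 was called higher in pDC than in cDC (3.18 ± 0.44 under panobinostat and 3.58 ± 0.45 under vehicle, log2), while Cd22, an inhibitory receptor known from B cells, was called lower (-2.95 ± 0.32 under panobinostat, where 10.2% of all genes were called lower, and -3.76 ± 0.33 under vehicle, where 4.71% were). Siglece was called lower under panobinostat (-6.53 ± 1.46, adjusted p = 0.0306), and under vehicle it had -5.82 ± 1.39 (adjusted p = 0.0514). Ptprf, a relative of Ptprs, had 64.8 and 28.0 CPM in panobinostat pDC, 119 and 89.0 CPM in vehicle pDC, and at most 0.792 CPM in any cDC library. Pacsin2 had 0.372 CPM in panobinostat pDC replicate 2, against 20.3 to 32.9 CPM in the other pDC libraries and 120 to 167 CPM in cDC. None of these was called for panobinostat in pDC.

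Genes that work with the markers were described in the same way. Of 12 genes of Siglec-H and B cell receptor like signalling, 5 were called higher and 1 lower in panobinostat pDC than in panobinostat cDC (7.76% and 10.2% of all genes), and 5 higher and none lower under vehicle (5.01% and 4.71%). Tyrobp, the adaptor of Siglec-H, had 2051 and 5059 CPM in panobinostat pDC, 1709 and 2634 CPM in vehicle pDC, 385 and 456 CPM in panobinostat cDC, and 354 and 419.7 CPM in vehicle cDC. For panobinostat in pDC none of the 12 was called, with 5 estimates above 0, 7 below and a median of -0.03. Among those with the smallest p, Cd84, a receptor of the SLAM family, had 2.43 ± 0.51 (adjusted p = 0.154) and the phospholipase gene Plcg2 had -0.80 ± 0.17 (adjusted p = 0.159). Of 8 ligands and sheddases of Lag3, 7 were tested and none was called for panobinostat in pDC, where the median was 0.80. The sheddase gene Adam10 was called higher in panobinostat pDC than in panobinostat cDC (1.20 ± 0.26, adjusted p = 0.0281), and under vehicle it had 0.61 ± 0.25 (adjusted p = 0.212). Of 9 genes of pyrimidine breakdown beside Upb1, 4 had enough counts to be tested. None was called higher in pDC, and Upp1, a uridine phosphorylase gene, was called lower in panobinostat pDC than in panobinostat cDC (-8.15 ± 1.93, adjusted p = 0.0448; under vehicle -3.35 ± 1.39, adjusted p = 0.225).

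Of the 26 further pDC genes, none was called for panobinostat in pDC, with a median of 0.09 and 16 estimates above 0. Spib, a transcription factor gene of the pDC lineage, had 272 and 312 CPM in panobinostat pDC and 801 and 809 CPM in vehicle pDC (log2 fold change -1.46 ± 0.18, adjusted p = 0.0852). Cd7 had 1760 and 2406 CPM in panobinostat pDC and 782 and 737.5 CPM in vehicle pDC (1.46 ± 0.27, adjusted p = 0.134), Ccr9, the receptor that guides pDC to the gut, had a log2 fold change of -0.61 ± 0.21 and Cd300c one of 0.74 ± 0.28. Of 30 genes of the type I interferon response, to which Bst2 also belongs, 24 had estimates above 0 in pDC with a median of 0.47, and 1, Ifi27, was called (2.06 ± 0.18, adjusted p = 0.0458; no gene was called with the replicate block). In cDC all 30 estimates were above 0, with a median of 0.63, and none was called. Bst2 lay above the median of these genes in pDC, at 1.02, and below it in cDC, at 0.37.

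Over the 8 libraries the genes whose log2 CPM ran most like that of Siglech were Lair1 (Pearson r = 0.9995), Matn2 (0.9983), Paqr5 (0.9979), Calcoco1 (0.9977) and Ctsb (0.9977), of the 8285 genes that averaged a log2 CPM of 3 or more. The libraries share the split into pDC and cDC, and 443 genes had an r over 0.95. Of the other 9 markers, Upb1 was nearest to Siglech with r = 0.995 and rank 19, followed by Klk1 (0.992), Smim5 (0.990), Bst2 (0.987), Ly6c2 (0.981), Pacsin1 (0.971), Ly6d (0.962) and Lag3 (0.920). Ptprs had r = 0.335, and 0.970 without panobinostat pDC replicate 2. Within the 4 pDC libraries, too few for a correlation to be given, none of these 5 genes was among the 5 that ran most like Siglech, and Pacsin1, Lag3 and Ptprs were below vehicle under panobinostat where Siglech was above.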

How the data were processed

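The 8 libraries and their 4 groups were taken from the sample titles. The values used are the whole-number read counts per Entrez gene ID that the authors deposited, unnormalized and 1 column per library. Per the submitters' processing notes the tools were bcl2fastq (2.17.1.14), FastQC (0.11.6), cutadapt (2.1), HISAT2 (2.1.0) and featureCounts from Subread (2.0.0), with build mm10. Trizol and a Zymo column kit served for RNA and a low-input NEBNext kit for libraries, per the labels' protocols. Strandedness and multi-mapping rules are not stated, so antisense partners and near copies cannot be told apart.

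Symbols came from RefSeq (GRCm38.p6), which matched 25275 of 27179 IDs, and exon lengths from GENCODE (GRCm38). Counts were tested in R (4.3.3) with edgeR (4.0.16): filterByExpr (minimum count 10, minimum total 15) kept 14238 genes and all 10 markers, libraries were scaled by TMM, and all 8 libraries were fitted as 4 group means with 4 residual and 2.32 prior degrees of freedom. P-values are from the quasi-likelihood F test, adjusted by Benjamini-Hochberg over all genes tested, with 0.05 as the threshold. The pipeline was tested on simulated data. DESeq2 (1.42.0), limma-voom (3.58.1), other scalings and filters, subsets of libraries and a replicate block made up 22 alternatives. Per-kilobase levels divide CPM by exon length. Log2 CPM carried a prior count of 2.

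The replicate numbers come from the titles. Deviations from the group means correlated between same-numbered libraries with r = 0.15 to 0.49 in all 6 pairs of groups, so same-numbered libraries were treated as pairs in the block. The 10 markers and the 17 further gene lists were chosen with earlier results of these data known. Named genes are the 10 markers, the 4 of each list with the smallest p in a comparison, family relatives with enough counts, and the 5 genes most like Siglech; Tyrobp, Zbtb46, Clec10a, Cd209a and the marker genes given beside Lag3 were named after their values were seen. Some genes that the rule would name are not reported here. The series design calls the libraries biological replicates, so p-values rest on the spread between libraries of a group, each from a pool of mice. That spread was estimated over all 4 groups together and includes the gap between the panobinostat pDC libraries. The main fit did not use the pairing. No molecular identifiers are stated.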

Additional observations from a re-analysis of the deposited data

Results flagged for a closer look

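Lag3 is the one result singled out, because panobinostat and vehicle differed in opposite directions in the 2 cell types, without overlap in either. Siglech, Ly6d, Klk1, Pacsin1, Upb1 and Smim5 also had estimates of opposite sign in pDC and cDC, but their groups overlapped in cDC. In pDC both panobinostat libraries (295 and 258 CPM) lay below both vehicle libraries (815 and 982 CPM), as in 26.5% of all genes. In cDC both panobinostat libraries (65.5 and 52.4 CPM) lay above both vehicle libraries (49.8 and 32.1 CPM), as in 22.2% of all genes. The difference of the log2 effects, pDC minus cDC, was -2.23 ± 0.37. It did not pass edgeR's quasi-likelihood test after adjustment over all genes (adjusted p = 0.326). It was called by DESeq2, where 2.04% of all genes were. Without panobinostat pDC replicate 1 the difference was -2.34, and over all alternatives it ran from -2.59 to -1.95.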

How the results depend on the processing

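The direction of Siglech, Bst2, Klk1, Pacsin1, Ly6c2, Lag3 and Ptprs under panobinostat in pDC held in all 18 alternatives run, and that of Ly6d, Upb1 and Smim5 did not. The counts of markers that follow are from fits that kept both libraries of every group compared. Markers also passed the threshold without panobinostat pDC replicate 1, in pDC and in the difference of the effects. That fit rests on a lone library of its group, so it is left out of these counts. The count of markers called in pDC was 1 (Lag3, lower) with no low-count filter (0.300% of all genes) and with DESeq2 (6.36%). For the difference of the effects it was 1 (Lag3) with DESeq2 (2.04% of all genes). In cDC it was 1 (Ly6d, lower) in the 4 cDC libraries alone with the replicate block (0.782% of all genes). For pDC against cDC under panobinostat it was 4 in the 4 panobinostat libraries alone, where 161 of 13267 genes were called. The cause of these changes was not tested. With the replicate block on all 8 libraries the counts were 0 in pDC, 0 in cDC, 0 for the difference, 9 under panobinostat and 9 under vehicle, the same as without it. Over all 14238 genes the block gave 2302 calls for pDC against cDC under panobinostat and 1241 under vehicle. In the 4 cDC libraries alone the pairing took the count to 1, against 0 without it, and that over all genes to 106, against 0.

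With 1 library left out at a time, the lone library of its group was assumed to vary like the others. Without panobinostat pDC replicate 1, the pDC estimates were 0.65 for Siglech, 1.41 for Bst2, 0.50 for Ly6d, 1.75 for Klk1 and 1.21 for Ly6c2. They were 1.25 for Upb1, 0.37 for Smim5, -0.83 for Pacsin1, -1.81 for Lag3 and -5.66 for Ptprs. Ptprs reversed in pDC against cDC under panobinostat: -2.54 without panobinostat pDC replicate 1 and 2.32 without replicate 2. Of the 5 genes most like Siglech, 3 were shared without panobinostat pDC replicate 2, 4 with library size alone and 0 in the 4 pDC libraries alone, a setting chosen after seeing the data. Over all genes, the count called in pDC was 13 with edgeR, 906 with DESeq2, 0 with limma-voom, 0 with the replicate block and 719 without panobinostat pDC replicate 2. For the difference it was 1 with edgeR, 0 with the block, 279 without panobinostat pDC replicate 2 and 6457 without replicate 1. Scaling by library size alone moved the median of all genes to -0.28 in pDC and -0.13 in cDC, where TMM gave -0.14 in pDC and 0.00 in cDC. RLE scaling moved it to -0.11 for pDC against cDC under vehicle, where TMM gave 0.02. With 2 libraries a group and depths of 13124861 to 20657429 counts, Klk1, Siglech and Upb1 in cDC rest on 3 to 70 reads.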

Other observations

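Neighbouring genes within 100 kb of the markers were looked at after the marker values were known. Cd4, which codes for the coreceptor also carried by mouse pDC, lies on chromosome 6 with a gap of 16112 bases to Lag3. Its level was 272.5 and 280 CPM in panobinostat pDC and 690.5 and 795 CPM in vehicle pDC, a log2 fold change of -1.43 ± 0.21 (edgeR adjusted p = 0.112), beside -1.70 ± 0.27 for Lag3. In cDC the log2 fold change of Cd4 was 0.12 ± 0.21 and that of Lag3 0.53 ± 0.26. Ptms, only 1241 bases from Lag3, had an estimate of 0.36 ± 0.37 (log2) in pDC, which was not called. Other neighbours of Lag3 had lower estimates in pDC than Cd4: Usp5 (-1.45 ± 0.60), Zfp384 (-2.62 ± 0.74), P3h3 (-3.53 ± 1.15) and Pianp (-4.64 ± 1.09). P3h3 and Pianp rest on few reads in pDC. Besides Ptms, Spsb2 (0.90 ± 0.45) and Cdca3 (0.11 ± 1.58) were above 0. None of these was called. Lynx1, 9077 bases from Ly6d, had -1.92 ± 0.50 where Ly6d had 0.17 ± 0.84. Near Bst2, Mvb12a (2.54 ± 0.33), Tmem221 (4.43 ± 0.34) and Slc27a1 (4.12 ± 0.33) were called higher in vehicle pDC than in vehicle cDC, where 5.01% of all genes were. For panobinostat in pDC their log2 fold changes were 0.28 ± 0.31 (Mvb12a), 0.06 ± 0.30 (Tmem221) and -0.49 ± 0.29 (Slc27a1).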
